A study of Mus musculus with 8 samples.

Results

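The 8 genes described here encode transcription regulators that mark projection neurons of the upper cortical layers: Cux1, Cux2, Rorb, Pou3f1, Pou3f2, Pou3f3, Lmo4 and Lhx2. They were taken by gene symbol from a table of 26229 genes, in which each symbol occurred once. All 8 passed the filter on low counts and so belonged to the 18085 genes with an adjusted p, called tested genes below. The table compares mRNA of mouse primary cortical neurons of 2 genotypes, with 4 libraries each that the labels name biological replicates. The knockout libraries carry the genotype H2BE-KO/mCherry-KI, in which the gene of the histone variant H2BE is knocked out and the sequence of the fluorescent protein mCherry is inserted, and are called H2BE-KO here. The other libraries are wild type (WT). Neurons of both genotypes came from E16.5 embryos and spent 12 days in culture, so no layered tissue was left and the layer of a cell could not be read from its position. The labels give neither strain nor sex, nor whether each replicate was 1 embryo or a pool. The question set by the design is which transcripts differ in neurons without H2BE. Only the knockout libraries carry the mCherry insertion, so its effects and those of losing H2BE cannot be told apart.

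Projection neurons of the cortex are born in sequence, first those of the deep layers, which send axons to subcortical targets, and later those of the upper layers, which connect cortical areas with each other. CUX1 and CUX2 are cut homeodomain proteins of upper-layer neurons that act in the growth of dendrites and spines. The POU homeodomain proteins POU3F1 (also called OCT6), POU3F2 (BRN2) and POU3F3 (BRN1) act in the making and migration of upper-layer neurons. RORB is an orphan nuclear receptor and the best known marker of layer 4. LHX2 is a LIM homeodomain protein that acts in cortical progenitors and is kept in upper-layer neurons, and LMO4 is a LIM-only protein without a DNA-binding domain of its own that binds the adaptor LDB1 and patterns cortical areas. None of these genes is exclusive to upper layers: Lmo4 is also expressed in deep layers, Pou3f1 in subcortically projecting neurons, and Lhx2 and Rorb also in astrocytes. In RNA from a whole culture, fewer cells of a type and less RNA per cell cannot be told apart.

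The promoters of the 2 genes that were higher in H2BE-KO neurons are shown, with the 250 bases before the most upstream start site that RefSeq annotates in build GRCm38.p6. Capitals mark matches on either strand to TATAA (the TATA box), CCAAT (the CCAAT box) and GGGCGG (the GC box). The Rorb window is chr19:19111197-19111446 and the Lmo4 window is chr3:144205256-144205505, both read along the minus strand.
Rorb: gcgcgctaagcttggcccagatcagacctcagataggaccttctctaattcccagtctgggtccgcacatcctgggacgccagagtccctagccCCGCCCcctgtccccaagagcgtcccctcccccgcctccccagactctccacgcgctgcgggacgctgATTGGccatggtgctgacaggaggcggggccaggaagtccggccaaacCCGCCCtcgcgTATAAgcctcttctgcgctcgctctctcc
Lmo4: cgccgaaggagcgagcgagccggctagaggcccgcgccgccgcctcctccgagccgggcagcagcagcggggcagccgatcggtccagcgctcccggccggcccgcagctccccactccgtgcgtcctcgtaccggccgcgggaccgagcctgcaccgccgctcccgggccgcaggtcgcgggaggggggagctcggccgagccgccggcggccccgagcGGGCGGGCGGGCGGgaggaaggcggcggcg
The Rorb window held 1 TATAA, 1 CCAAT and 2 GGGCGG matches. The Lmo4 window held no TATAA or CCAAT match and 3 GGGCGG matches, which overlap in 1 run. Of 27025 promoters of this length, 1 per gene, 23.5% held TATAA, 34.5% CCAAT and 33.0% GGGCGG. Both windows held more CpG than the median of 6 over all promoters, with 18 in Rorb and 44 in Lmo4. Of all promoters, 78.4% had fewer CpG than Rorb and 99.5% had fewer than Lmo4. Of the genes described, 7 had an entry in the promoter table. The windows of Cux1 (18 CpG) and Cux2 (40 CpG), the genes that were lower, overlapped annotated exons by 250 and 86 bases and held none of these 3 motifs. Among the genes without a call, the windows held 25 CpG in Lhx2, 18 in Pou3f2 and 15 in Pou3f3. These windows held motifs as well, with 4 GGGCGG matches in Lhx2, 2 CCAAT and 1 GGGCGG in Pou3f2, and 3 CCAAT and 1 GGGCGG in Pou3f3. CCAAT and GGGCGG were thus not particular to the genes that were higher. A homeodomain core (TAATTA), a CUX core (ATCGAT) and a nuclear receptor core motif (AGGTCA) were also searched on both strands. None of them occurred in any of the 7 windows, and they occurred in 4.91%, 0.729% and 13.8% of all promoters. Which start site these neurons use was not measured.

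The knockout was checked by the targeted gene first. In the authors' deposited table H2bc21, which encodes H2BE, differed more clearly than any other gene, and the direction of all fold changes was set by it, since the table does not name one. Read this way, its log2 fold change was -3.45 (SE 0.19), with an estimated mean of 185 normalized counts in H2BE-KO and 2033 in WT. The direction of each change below rests on that reading and would swap if it were wrong. The table gives, for each gene, a mean normalized count over all 8 libraries, a log2 fold change, its standard error (SE) and an adjusted p, but no value for single libraries. A mean per genotype was therefore estimated from the overall mean and the fold change, with both genotypes given equal weight, and the spread between replicates enters only through the SE. The depth of single libraries was not analysed here, and the mean normalized counts of all genes summed to 3.96e+07.

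The upper-layer genes did not move as 1 group. Rorb and Lmo4 were higher in H2BE-KO neurons, Cux1 and Cux2 were lower, and Pou3f1, Pou3f2, Pou3f3 and Lhx2 did not pass the test. A gene was called at an adjusted p under 0.05 in the authors' deposited table (DESeq2, Wald test, Benjamini-Hochberg adjustment over all tested genes). By that rule 4 of the 8 genes were called, against 21.8% of all tested genes. The 2 genes higher in H2BE-KO compare with 11.0% of all tested genes called in that direction, and the 2 lower genes with 10.9%. Calls were more frequent among well expressed genes: from a mean count of 500 to 5000, the range in which all 8 lie, 28.7% of 6839 genes were called. The median log2 fold change of the 8 genes was -0.14, beside -0.02 for all tested genes, and 3 of the 8 values were above 0. Once a trend fitted on exon length and GC content was subtracted, the median of the 8 genes was -0.22. When a t distribution (6 degrees of freedom) replaced the normal one, or with the null rescaled to the spread of all Wald statistics, none of the 8 genes kept its call, while 4 and 2 of them had an unadjusted p under 0.05 by those nulls. Over all 18085 tested genes those nulls gave 1 and 70 calls, so the loss was not particular to the 8 genes.

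**Figure D1:**
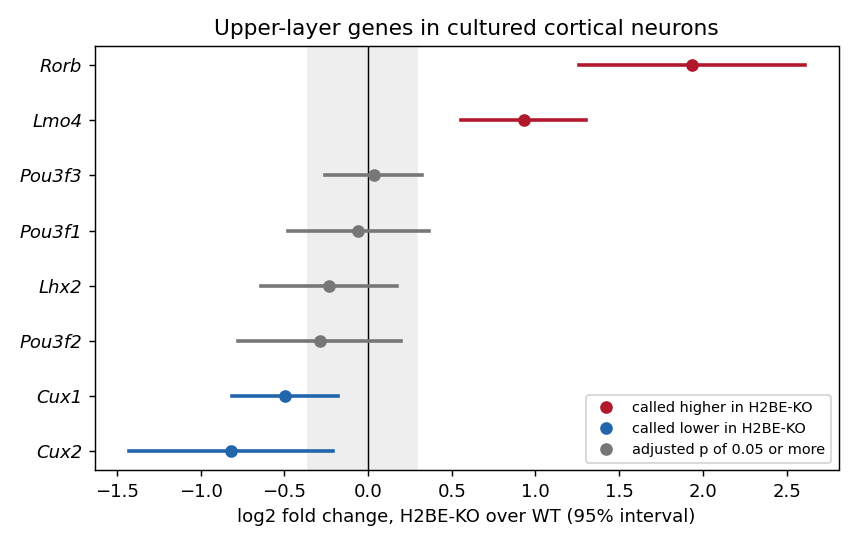
Log2 fold change of each upper-layer gene (H2BE-KO over WT, x axis) with its 95% interval, from the authors' deposited table. The grey band spans the quartiles of all tested genes, -0.36 to 0.29. The intervals of Rorb and Lmo4 lie above the band, those of Cux1 and Cux2 lie below 0, and the 4 grey genes have intervals that include 0.

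Rorb showed the largest difference of the 8. Its mean normalized count was 575 over all libraries, with an estimated 912 in H2BE-KO and 238 in WT. Its log2 fold change stood at 1.94 in the authors' deposited table (SE 0.34, 95% interval 1.26 to 2.61, adjusted p = 8.89e-07), which is 3.82-fold with an interval from 2.40 to 6.10. Among the 2075 tested genes within 1.5 times its mean count, 1.01% had a larger absolute change. Its error was also large: 94.4% of those genes had a smaller SE, and their median SE was 0.17. By adjusted p it ranked 213 of the 1981 genes called higher. Rorb (ENSMUSG00000036192) lies on the minus strand of chromosome 19 from 18930605 to 19111196 in GRCm38, with up to 11 exons in a transcript and 11076 bases of annotated exon. RORB promotes layer 4 identity in mouse cortex. Its close relative Rora, which acts in the same layer, was at -0.45 (SE 0.22, adjusted p = 0.123) in the authors' deposited table and did not pass. The genotype means of Rora were estimated at 464 in H2BE-KO and 633 in WT, so the pair lay on opposite sides of 0.

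Lmo4 was the other gene higher in H2BE-KO. Its estimated mean was 3880 normalized counts in H2BE-KO and 2036 in WT, and its overall mean was 2958. Per the authors' deposited table the log2 fold change was 0.93 (SE 0.19, 95% interval 0.56 to 1.30, adjusted p = 2.64e-05), or 1.91-fold. Of 2414 tested genes of like mean count, 4.43% had a larger absolute change. Its interval overlapped that of Rorb. Still, the log2 fold change of Rorb less that of Lmo4 was 1.01 (95% interval 0.24 to 1.77, estimates taken as independent). Lmo4 (ENSMUSG00000028266) lies on the minus strand of chromosome 3 from 144188530 to 144205220, with 3530 bases of annotated exon. The other LIM-only genes moved in different directions. Lmo3, also a marker of deep-layer neurons, rose in the authors' deposited table to 0.97 (SE 0.14). Lmo2, known best from blood and vessel development, fell to -1.69 (SE 0.22), and Lmo1, at 0.49 (SE 0.31), did not pass.

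Cux2 and Cux1 were both lower in H2BE-KO. For Cux2 the estimated mean was 1467 normalized counts in H2BE-KO and 2590 in WT, or 56.6% of WT. The authors' deposited table placed its log2 fold change at -0.82 (SE 0.31, 95% interval -1.43 to -0.21, adjusted p = 0.0405), close to the threshold. Its SE was larger than that of 96.6% of the 2674 tested genes of like mean count, whose median SE was 0.13. Cux2 ranked 1827 by adjusted p of the 1967 genes called lower. It lost its call when p-values were adjusted over every gene with a p, tested or not (adjusted p = 0.0585). Cux2 (ENSMUSG00000042589) lies on the minus strand of chromosome 5 from 121856366 to 122050102, with up to 23 exons.

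For Cux1 the estimated mean was 2759 normalized counts in H2BE-KO and 3887 in WT, or 71.0% of WT. Its log2 fold change in the authors' deposited table was -0.49 (SE 0.16, 95% interval -0.81 to -0.18, adjusted p = 0.0151). At an adjusted p under 0.01 neither Cux gene was called, and Cux1 also lost its call where a log2 change of at least 0.5 was asked for. The fold changes of Cux1 and Cux2 differed by 0.33 (95% interval -0.36 to 1.01, taking the estimates as independent although they share libraries), so the data do not separate them. Cux1 (ENSMUSG00000029705) lies on the same chromosome and strand from 136248135 to 136567490 and has 14 annotated transcripts and 20024 bases of annotated exon. The locus also encodes CASP, a Golgi protein that shares exons with CUX1 but lacks its homeodomain. The table has 1 row for the locus, so transcripts of the pair were not separated. Satb1, which also encodes a protein with cut domains and a homeodomain, was at 0.59 (SE 0.28, adjusted p = 0.121) in the authors' deposited table and did not pass.

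**Figure D2:**
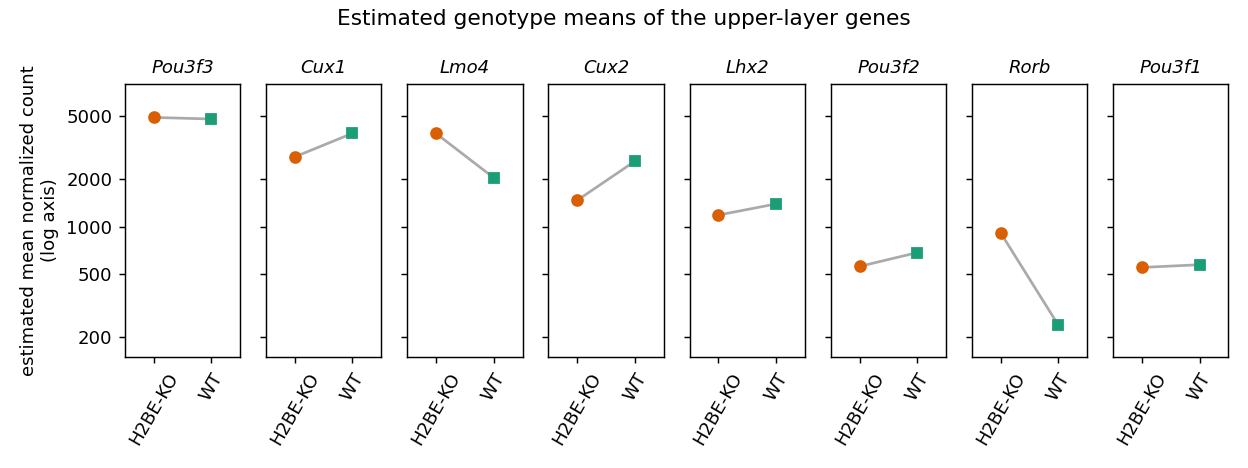
Mean normalized count of each upper-layer gene in H2BE-KO (circle) and WT (square) on a log axis, estimated from the overall mean and the fold change, in order of overall mean. The steepest line is that of Rorb, at 912 in H2BE-KO and 238 in WT, and the line of Pou3f3 is nearly flat. No error is drawn, since values for single libraries were not analysed here.

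None of the 3 POU genes of the group passed the test. Pou3f3, the most abundant of the 8 by count, had an estimated mean of 4896 normalized counts in H2BE-KO and 4784 in WT. Its log2 fold change was 0.03 in the authors' deposited table (SE 0.15, adjusted p = 0.903), and the 95% interval, from -0.26 to 0.32, leaves room for changes of up to about 1.25-fold. Pou3f1 had an estimated mean of 553 in H2BE-KO and 576 in WT, and stood at -0.06 on the log2 scale in the authors' deposited table (SE 0.21, 95% interval -0.48 to 0.36, adjusted p = 0.884). Pou3f2 had an estimated mean of 562 in H2BE-KO and 686 in WT, and the authors' deposited table listed -0.29 (SE 0.25, 95% interval -0.77 to 0.20, adjusted p = 0.442). The interval of Pou3f2 does not exclude a level of 58.5% of WT, and the change estimated for Cux1 lies inside that interval. All 3 genes have a single exon. Pou3f1 (ENSMUSG00000090125) lies on chromosome 4 from 124656807 to 124660655, Pou3f2 (ENSMUSG00000095139) on the same chromosome from 22482780 to 22488366, and Pou3f3 (ENSMUSG00000045515) on chromosome 1 from 42695768 to 42703176. The fourth gene of the class, Pou3f4, is known from striatal and inner ear development. It was lower in the authors' deposited table, at -0.72 (SE 0.26, adjusted p = 0.0272), with an estimated mean of 138 in H2BE-KO and 228 in WT.

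Lhx2 did not pass either. Its estimated mean was 1185 normalized counts in H2BE-KO and 1392 in WT, and the log2 fold change in the authors' deposited table was -0.23 (SE 0.21, 95% interval -0.64 to 0.18, adjusted p = 0.468). Lhx2 (ENSMUSG00000000247) occupies bases 38339281 to 38369733 of chromosome 2, on the plus strand. Of its relatives, Lhx6, a determinant of interneurons of the medial ganglionic eminence, fell to -1.26 (SE 0.27) in the authors' deposited table. Lhx9, the closest paralog of Lhx2, rose to 3.53 (SE 0.84), and Lhx1 to 2.29 (SE 0.68), but their mean counts were 27.1 and 82.2. Of 22 relatives of the 8 genes by protein class, 18 were tested, of which 4 rose, 3 fell and 11 did not pass. Calls made up 38.9% of the tested relatives, against 21.8% of all tested genes.

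Counts were set against exon length to compare levels between genes. On the scale of overall mean normalized count per kilobase of annotated exon, Lmo4 stood highest at 838, followed by Pou3f3 at 653, Lhx2 at 293, Cux2 at 201, Cux1 at 166, Pou3f1 at 147, Pou3f2 at 112 and Rorb at 51.9. Rorb was lowest in both genotypes, with 82.4 counts per kilobase in H2BE-KO and 21.5 in WT. Lmo4 stood at 1099 per kilobase in H2BE-KO and 577 in WT, and Pou3f3 at 661 in H2BE-KO and 646 in WT, so that the first and second places were exchanged between the genotypes. Cux2, Cux1 and Pou3f1 lay at 146, 138 and 144 counts per kilobase in H2BE-KO, and at 257, 194 and 150 in WT. No spread over libraries is at hand for these levels, and whether neighbours in the order differ was not tested. Long annotated exons that the neurons do not use lower the value of a gene, and Cux1 has the longest annotated exons of the 8, with 20024 bases.

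**Figure D3:**
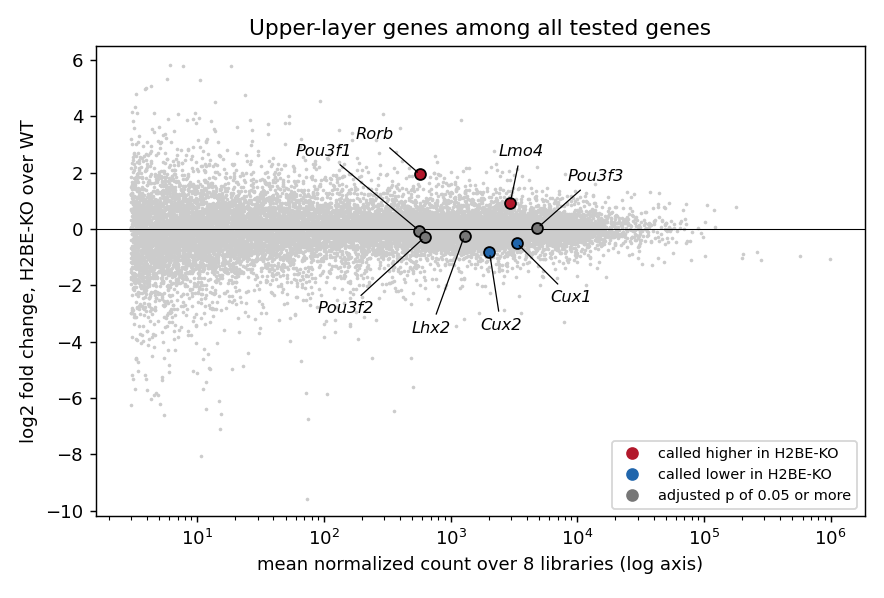
Log2 fold change (H2BE-KO over WT, y axis) against mean normalized count (log axis) for all tested genes in grey, with the 8 upper-layer genes coloured by call. Rorb stands at 1.94 near the upper edge of genes of its count, whereas Cux2 at -0.82 lies inside the cloud.

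**Figure D4:**
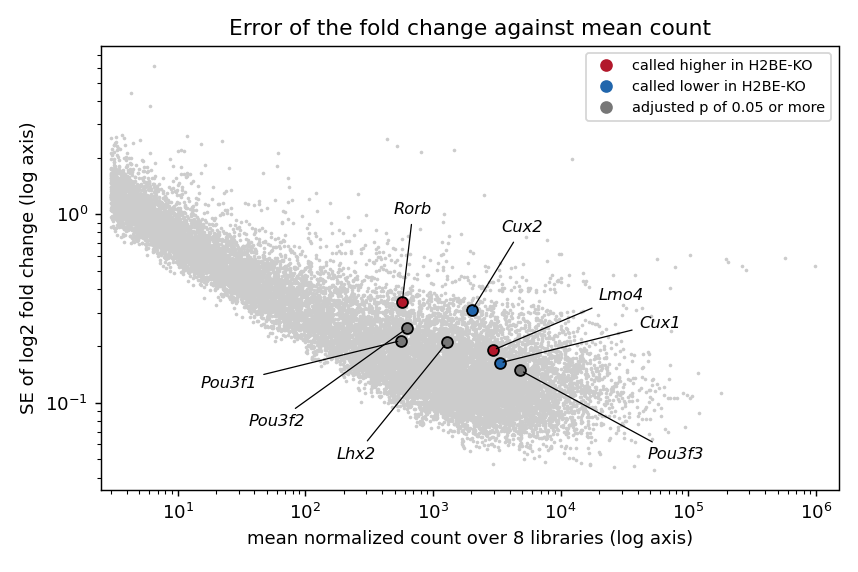
Standard error of the log2 fold change (log axis) against mean normalized count (log axis), for all tested genes in grey and for the upper-layer genes coloured by call. Rorb (SE 0.34) and Cux2 (SE 0.31) lie near the upper edge of genes with a like count, and Pou3f3 (SE 0.15) lies lowest.

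The fold changes of these genes carried more error than those of most genes with a like count. As the plot of error against count shows, all 8 had an SE above the median of genes with a like mean count. The share of those genes with a smaller SE ran from 67.4% for Pou3f3 and 72.2% for Pou3f1, through 74.3% for Cux1, to 94.4% for Rorb and 96.6% for Cux2. Which libraries carried that spread was not analysed here. Of the 28 pairs among the 8 genes, 12 had 95% intervals that did not overlap. Each of these pairs held Rorb or Lmo4 on one side and a gene other than these on the other. Non-overlap is a stricter rule than an interval of the difference that excludes 0, the rule used for Cux1 and Cux2. By the latter rule Rorb and Lmo4 were also apart. So were Cux1 and Pou3f3 (difference -0.53, 95% interval -0.96 to -0.10). Cux2 was apart from Pou3f3 (-0.85, -1.53 to -0.18) and, narrowly, Pou3f1 (-0.76, -1.50 to -0.02). These differences take the estimates as independent, and no adjustment was made for the number of pairs.

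Reads of overlapping genes could enter some of these counts, since the kit keeps strand but its use in counting is not given in the sources used here. The exons of Pou3f1 overlap those of the antisense gene Gm2164 by 330 bases. Gm2164 had a mean normalized count of 3.06, beside 564 for Pou3f1. The exons of Cux1 overlap an antisense gene, Gm16599, by 394 bases, and its level was not analysed here. No other member shared annotated exon bases with another gene.

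Other genes with upper-layer expression also lay on both sides of 0. Of 20 such genes, none of them a member, 6 rose, 4 fell and 10 stayed uncalled, and the median of their log2 fold changes was 0.21. In the authors' deposited table Plxnd1, a semaphorin receptor gene, rose to 0.90 (SE 0.12), Mdga1, an adhesion gene of layers 2 and 3, to 1.73 (SE 0.32), Bhlhe22, a bHLH repressor gene, to 1.35 (SE 0.27) and Kitl, the gene of stem cell factor, to 1.13 (SE 0.24). Limch1 fell to -0.45 (SE 0.10) and Nrp1, the gene of the semaphorin receptor neuropilin-1, to -0.71 (SE 0.18). Of 20 deep-layer genes, 17 rose, none fell and 3 did not pass, while 18 lay above 0, with a median of 1.28, and their estimated means summed to 72559 normalized counts in H2BE-KO and 27766 in WT. Among them the authors' deposited table listed Etv1 of layer 5 at 1.98 (SE 0.24), Rprm at 1.73 (SE 0.23), Hs3st4 at 2.32 (SE 0.31) and Tbr1, the determinant of layer 6 neurons, at 1.90 (SE 0.28). The 3 without a call were Cplx3 at -1.04 (SE 0.46, adjusted p = 0.0900), Crym at -0.08 (SE 0.34) and Nr4a2 at 0.46 (SE 0.29) in the authors' deposited table, named after their values were seen. These counts depend on the null as those of the 8 genes do: with the t distribution no gene of any list here was called, while 17 deep-layer genes had an unadjusted p under 0.05. With the rescaled null, 4 deep-layer genes and 1 of the other upper-layer genes were called, all higher in H2BE-KO. Over all 18085 tested genes there was 1 call with the t distribution and 70 with the rescaled null. In the authors' deposited table, calls made up 50% of the other upper-layer genes and 85% of the deep-layer genes, against 21.8% of all tested genes. The difference between the lists was not tested. Against 11.0% of all tested genes called higher, genes of projection neurons in general gave 6 higher and none lower of 12 (median 0.58). Per the authors' deposited table these included Neurod2 (1.12, SE 0.21), Emx1 (1.41, SE 0.27), Neurod6 (0.88, SE 0.27) and Slc17a7, the gene of the main cortical vesicular glutamate transporter (0.75, SE 0.24). Slc17a6, the other such transporter tested, was at 0.17 (SE 0.33) and did not pass.

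Partners of LIM proteins were looked at because LMO4 and LHX2 work through the LDB adaptors, which SSBP proteins stabilize. Of 7 partner genes, 3 rose and none fell, against 11.0% of all tested genes called higher and 10.9% called lower. In the authors' deposited table Ldb2 rose to 2.76 (SE 0.36), with an estimated mean of 3847 normalized counts in H2BE-KO and 566 in WT, Ssbp2 rose to 1.45 (SE 0.21) and Ssbp3 to 0.58 (SE 0.14). Ldb1, the adaptor known to bind LMO4 and LHX2 in cortex, was at 0.14 (SE 0.10, adjusted p = 0.324) and did not pass. The lists are not separate. Ldb2 is also in the deep-layer list, Lmo3 in the deep-layer and the relatives' lists, Tbr1 in the deep-layer list and that of projection neurons in general, Bhlhe22 in the other upper-layer list and that of projection neurons in general, Lhx6 in the relatives' and interneuron lists and Sox9 in the progenitor and astrocyte lists.

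**Figure D5:**
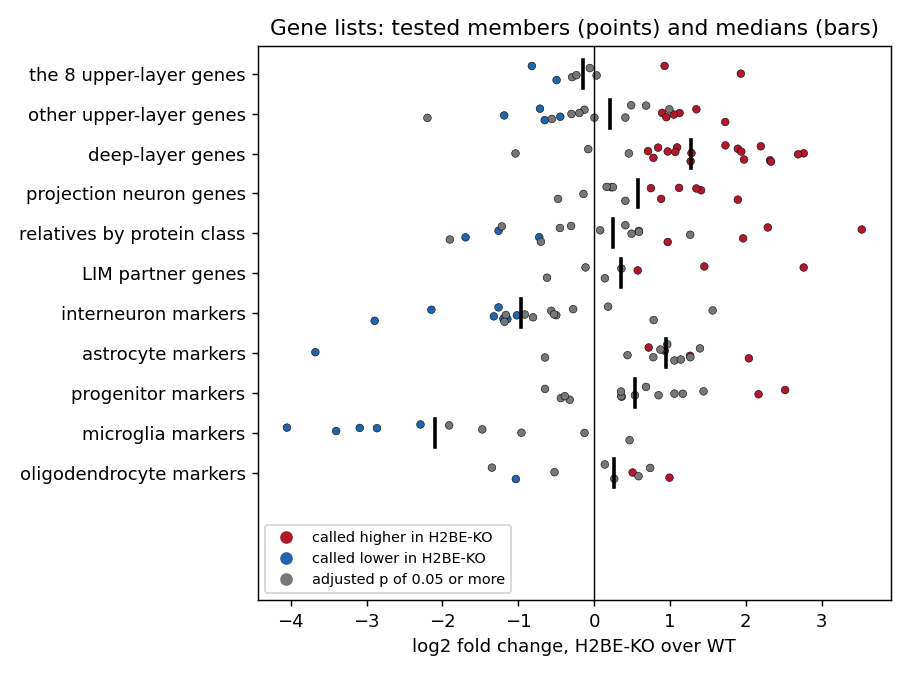
Log2 fold change (H2BE-KO over WT, x axis) of every tested gene in each list, coloured by call, with the list's median as a black bar. The 8 upper-layer genes spread on both sides of 0 around a median of -0.14, and the deep-layer genes around 1.28. Points are shifted up or down at random for legibility.

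Markers of other cell types that the cultures could hold were read as well; cell shares were not measured, and 21.8% of all tested genes were called. Interneuron markers gave 7 lower and none higher of 18 (median -0.97), with summed estimated means of 86457 normalized counts in H2BE-KO and 165154 in WT. In the authors' deposited table Npy was at -2.89 (SE 0.41) and Nxph1 at -1.14 (SE 0.25). Of the 18, 3 lay above 0, none of them called. These were Vip at 1.56 (SE 1.80), Calb2 at 0.79 (SE 0.61) and Prox1 at 0.18 (SE 0.97). Sst, at -0.28 (SE 0.29), was not called either. Astrocyte markers gave 4 higher and 1 lower of 14 (median 0.95), with sums of 25260 in H2BE-KO and 13499 in WT, and the authors' deposited table had the glutamate transporter gene Slc1a2 at 0.93 (SE 0.24) and Glul at 0.72 (SE 0.20). The astrocyte marker that was lower was Agt, at -3.68 (SE 1.13, adjusted p = 0.00842) in the authors' deposited table, a gene of low count (mean 21.3) named after its value was seen. Slc1a2 made up most of the astrocyte sums, which without it were 7555 in H2BE-KO and 4225 in WT. Markers of cortical progenitors gave 2 higher and none lower of 15, namely Hes1 (2.17, SE 0.39) and Eomes (2.52, SE 0.89) in the authors' deposited table, a share (13.3%) below that of all tested genes. The progenitor sums were 7121 in H2BE-KO and 5535 in WT, but without Fabp7, which was not called (adjusted p = 0.0877), they were 4261 in H2BE-KO and 4484 in WT, in the opposite order. Microglia markers gave 5 lower and none higher of 10 tested among 12, with sums of 228 in H2BE-KO and 1011 in WT, and the authors' deposited table had Cd68 at -2.29 (SE 0.40) and Csf1r at -3.09 (SE 0.66). Cd68 made up most of the microglia sums, which without it were 56.8 in H2BE-KO and 176 in WT. Of the 10 tested microglia markers, 9 had a mean count under 100. Oligodendrocyte lineage markers gave 2 higher and 1 lower of 9 tested among 11, with sums of 2349 in H2BE-KO and 1968 in WT, and the authors' deposited table had Mog at 0.99 (SE 0.17), Ugt8a at -1.03 (SE 0.36) and Cnp at 0.51 (SE 0.20). Astrocytes express Rorb and Lhx2, progenitors express Lhx2 and Cux2, and some interneurons express Cux2 and Lmo4. The part of these cells in the changes of the upper-layer genes was not tested.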

How the data were processed

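Polyadenylated RNA of 4 H2BE-KO and 4 WT cultures was sequenced from stranded libraries, per the labels' protocols. Reads were mapped to mm10 and compared with DESeq2, with DESeq also named, per the submitters' processing notes, and no source used here gives the aligner, the counting tool or the annotation. The deposited table holds, per the file headers, a mean normalized count per gene (a signal: counts divided by size factors and averaged over libraries), a log2 fold change with its SE on the log2 scale, a Wald score, a p-value and an adjusted p-value. The score was checked to be the fold change over its SE (largest gap 2.86e-07). Adjusted p-values were missing for 8135 genes with a p, all at a mean count of at most 2.99, and for 9 genes without one, and stayed missing. Values per library were not used, and no count model was run.

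Signs were turned to H2BE-KO over WT by the targeted gene. Intervals are 95% normal intervals from the SE. Genotype means were computed from the overall mean and the fold change, which assumes equal weight of the genotypes and no shrinkage of fold changes. The deposited p-values set each fold change against its SE, which rests on the spread between these libraries. Whether a library stands for 1 embryo or a pool is not given. Positions, exons and lengths come from GENCODE M21 (GRCm38, the assembly mm10 names), matched by identifier for 26032 rows. Named genes are the 8 members, the targeted gene and, per list, called genes of smallest adjusted p (up to 6 in lists of projection neurons, relatives and partners, up to 3 in lists of other cells). Lmo1, Rora, Satb1, Slc17a6 and Ldb1, which were not called, were added after their values were seen. So were Agt, Calb2, Cplx3, Crym, Fabp7, Nr4a2, Prox1, Sst and Vip. The members and lists were chosen with earlier results of these data known, so no list was tested. The adjustment and the trend removal were tested on simulated data. Python 3.11.15, numpy 2.4.6, pandas 2.3.3, scipy 1.17.1 and matplotlib 3.10.9 were used.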

Additional observations from a re-analysis of the deposited data

How the results depend on the processing

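Under 9 alternatives, the 8 genes gave 72 fold changes with their calls, of which 59 kept direction and call. No uncalled gene gained a call. Rorb and Lmo4 were called under 7 of the 9, Cux1 and Cux2 under 5. At an adjusted p of 0.01 (DESeq2), 2 of the 8 genes were called, 2 higher and 0 lower, with 2522 calls (13.9%) over all tested genes. All 4 genes called at 0.05 had an unadjusted p under 0.05. With adjustment over every gene with a p, 1 lower gene was left, Cux1, and with a minimum change of 0.5 (log2) it was Cux2. Over all tested genes these settings gave 3519 (19.5%) and 2653 (14.7%) calls. Under a t distribution (6 degrees of freedom) 0 members were called, 0 higher and 0 lower, and 1 gene overall; adjusted p was 0.0684 for Rorb and 0.0728 for Lmo4. With the null rescaled to the spread of all Wald statistics, 0 members were called in either direction and 70 genes overall; adjusted p was 0.207 for Rorb and 0.337 for Lmo4. These alternatives change only the null or the threshold, not the fold changes. Subtracting a trend fitted on exon length and GC content turned the uncalled Pou3f3 to -0.0041, moved the uncalled Pou3f1 from -0.06 to -0.17 and the median of the 8 genes from -0.14 to -0.22, and changed no call. Recentring on the median of all tested genes (-0.02), restriction to mean counts of 100 or more, and a threshold of 0.1 changed no call among the 8 either. No paired analysis was possible because the table holds no values per library, and replicates could not be left out for the same reason. The counts of the other lists under both other nulls, and the sums of markers without single genes, were chosen after seeing the data.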
